A study of Homo sapiens with 6 samples.

Results

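The collagen chain genes are the 44 genes of the mRNA count table whose symbol is COL, a type number, A and a chain number, out of 60623 gene IDs, of which 44020 carry a symbol. The rule uses the symbol alone and no measured value. The cells were MRC5, a line of normal human fibroblasts derived from lung, labelled WT in genotype in all groups and sampled at 48 h. The control group is labelled as treated with DMSO, the second group was given TGF-β1, a cytokine that drives fibroblasts to make matrix, and the third was given luteolin, a plant flavone, together with TGF-β1. The sources used here do not give the doses, the order of addition or whether the treated cells also received DMSO. None of the 6 libraries is from cells given luteolin alone, so an effect of luteolin by itself cannot be told apart. Each group is 1 mRNA library and 1 small RNA library of a single cell line, so there is no replicate check of any difference. Intervals are at the 95% level, exact for a ratio of counts, Wilson for a share and a normal approximation from the counts for a shift in a chain ratio. They cover counting error only and say nothing of the spread between cultures.

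Collagens are built from 3 chains wound into a triple helix. Fibrillar chains form the cable-like fibrils of connective tissue. Type IV chains form the sheet of the basement membrane, type VI chains form beaded filaments around cells, type VII forms anchoring fibrils, and the fibril-associated chains (FACIT) sit on fibril surfaces. Chains are hydroxylated and folded in the endoplasmic reticulum, trimmed outside the cell and cross-linked by lysyl oxidases. In the lung, fibroblasts are a main source of types I, III and VI, and excess deposition of fibrillar collagen marks fibrosis.

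The 3 mRNA libraries held 17876657, 14609132 and 15563805 counts, in the order control, TGF-β1, luteolin with TGF-β1, which is kept for all lists of 3 values. Levels are given as CPM (counts scaled to library size), scaled with TMM factors, and comparisons between chains use the authors' TPM, which corrects for gene length. The listed fibroblast markers summed to 7185, 6616 and 6427 CPM, mostly VIM at 4929, 5445 and 4358 CPM. By log2 ratio under the rule given below, FAP was called higher (1.12) and DCN lower (-2.80) after TGF-β1. With luteolin over TGF-β1, PDGFRB (1.20) and DCN (2.18) were called higher and S100A4 lower (-1.61). PECAM1 (endothelial), PTPRC and CD3E (leukocytes) and SFTPC (alveolar epithelium) were at 0 in all 3 libraries. Other markers on these lists were detected, and some were called higher or lower. TEK (endothelial) stood at 35.9, 33.6 and 2.92 CPM and was called lower with luteolin over TGF-β1, at -3.52. MUC1 (epithelial) had 43, 32 and 49 counts. Of the smooth muscle and pericyte markers, MYH11 had 2, 6 and 115 counts and was called higher with luteolin over TGF-β1 (4.39), while ABCC9 (-3.18) and DES (-2.20) were called lower. The smooth muscle and pericyte list summed to 508, 518 and 616 CPM. Their part in the collagen results was not tested. Known TGF-β1 response genes were higher in the treated library, 4 of 5 past the rule given below, beside 3.7% of all eligible genes. ACTA2 stood at 164, 533 and 3302 CPM. The response list summed to 3558, 8296 and 13098 CPM. With luteolin over TGF-β1, 3 of its 5 genes were called higher, beside 12.5% of all eligible genes. The luteolin + TGF-β1 library stood apart in proliferation genes, whose 5 members summed to 952, 1103 and 48.5 CPM. All 5 were called lower there than with TGF-β1 alone, beside 14.8% of all eligible genes. Their median was -4.98 on the log2 scale, and their part in the collagen results was not tested.

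Collagen transcripts took a larger part of the mRNA in each treated library than in the control. They made up 2.73% of counts in control (Wilson 95% interval 2.73 to 2.74), 3.91% after TGF-β1 (3.90 to 3.92) and 6.93% after luteolin + TGF-β1 (6.91 to 6.94). After TMM scaling, their summed counts were 1.56-fold higher after TGF-β1 than in control. They were 2.06-fold higher after luteolin + TGF-β1 than after TGF-β1 alone, and 3.21-fold higher than in control. The shares above are of unscaled counts, so the steps between them are smaller than these scaled folds. More collagen RNA per cell and more cells that make it cannot be told apart in bulk RNA. COL1A1 alone held 33.4%, 45.0% and 38.3% of the collagen counts. With COL1A1 and COL1A2 left out, the TMM-scaled sum of the remaining chains was higher by 0.29 on the log2 scale after TGF-β1 (0.28 to 0.30). It was higher by a further 1.18 with luteolin (1.17 to 1.18).

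**Figure D1:**
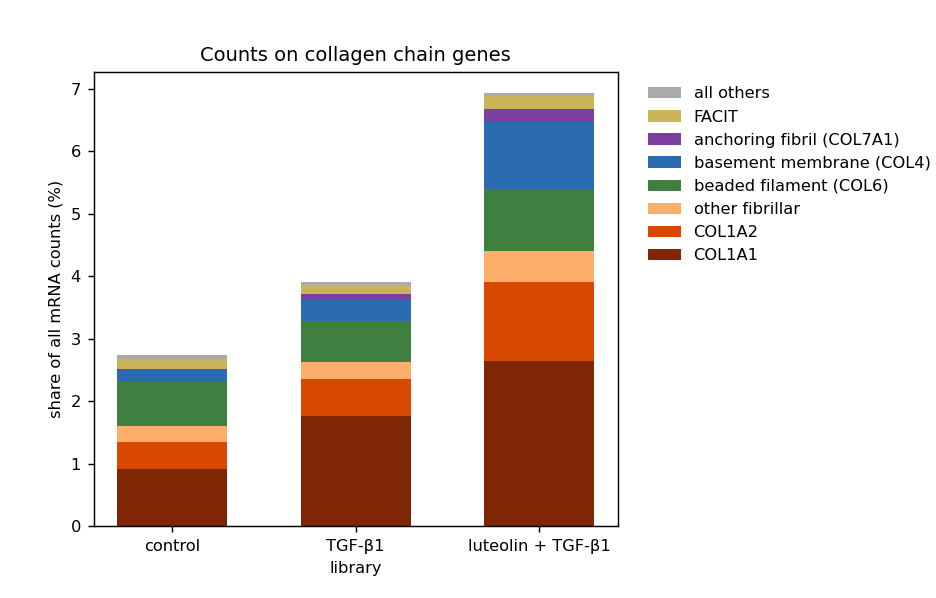
Share of all mRNA counts (%) on collagen chain genes in each of the 3 libraries, stacked by structural class, with COL1A1 and COL1A2 drawn apart from the other fibrillar chains. The whole bar stands at 2.73% in control, 3.91% after TGF-β1 and 6.93% after luteolin + TGF-β1.

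The classes did not share the gain evenly. Type IV chains summed to 0.189% of counts in control, 0.349% after TGF-β1 and 1.06% after luteolin + TGF-β1. Their TMM-scaled sums had log2 steps of 1.00 and 1.83. The fibrillar chains held 1.60%, 2.63% and 4.40% of counts, with log2 steps of 0.84 and 0.96 in the TMM-scaled sums. The beaded-filament chains held 0.702%, 0.658% and 1.00% of counts. Their TMM-scaled sum had log2 steps of 0.03 and 0.82. After TGF-β1 their share of counts was thus lower than in control and their TMM-scaled sum slightly higher, so that direction rests on the scaling. In contrast to these, the TMM-scaled short-chain network sum was lower at each step, by -0.13 and then by -0.22, and it was set almost wholly by COL8A1. The transmembrane sum, of only 506, 292 and 141 counts, was also lower at each step, by -0.38 and then by -0.92. The multiplexin sum (COL15A1 and COL18A1) had log2 steps of -0.79 and 0.73. Steps were 1.91 and 1.56 for the anchoring fibril, which is COL7A1 alone, and -0.005 and 0.77 for the FACIT sum.

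Expression spanned several orders of magnitude, and 27 of the 44 members reached 1 CPM in at least 1 library. By mean TPM the 10 highest were COL1A1, COL1A2, COL6A2, COL6A3, COL6A1, COL4A1, COL3A1, COL4A2, COL12A1 and COL5A2. COL1A1, COL1A2 and COL6A2 held the first 3 ranks in each library, but below them the order differed. With luteolin, COL5A1 (765 TPM) and COL7A1 (749 TPM) ranked above COL12A1 (573 TPM) and COL5A2 (499 TPM). COL1A1 led with a mean of 6979 TPM, against 2661 TPM for COL1A2 and 1464 TPM for COL6A2. COL6A1 and COL4A1 were next to each other at 742 TPM each. COL4A1 ran from 199.7 TPM in control to 1586 TPM with luteolin, while COL6A1 ran only from 523 to 1125 TPM. The 11 further members that had counts but stayed under 1 CPM in every library were COL17A1, COL9A3, COL14A1, COL25A1, COL28A1, COL21A1, COL4A4, COL9A1, COL26A1, COL20A1 and COL19A1, with at most 12 counts in any library. COL2A1, the fibrillar chain of cartilage, was at 0 in all 3 libraries, as were COL4A3, COL6A5, COL6A6, COL22A1 and COL23A1. An empty gene could still have up to 3 counts, or 0.151, 0.201 and 0.219 CPM.

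**Figure D2:**
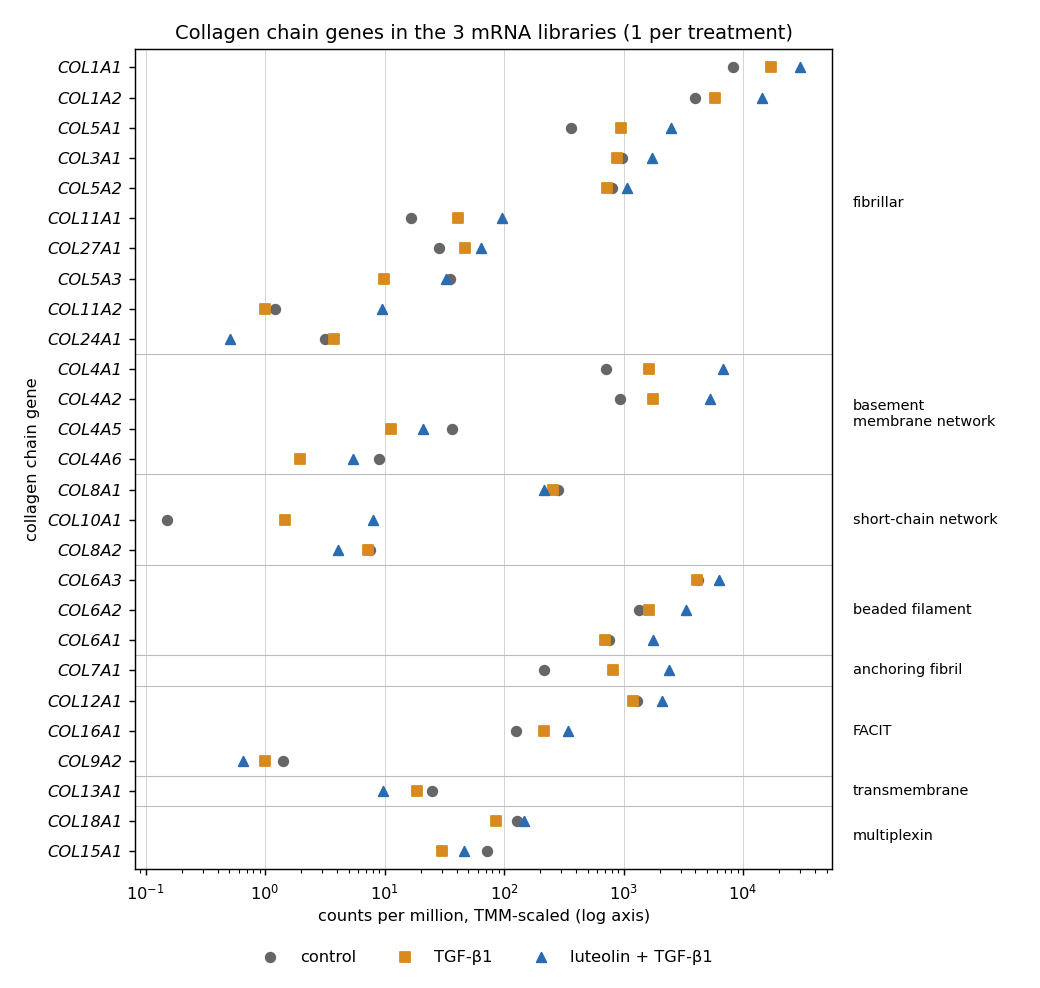
TMM-scaled CPM (log axis) of the 27 collagen chain genes that reached 1 CPM, in control (circles), TGF-β1 (squares) and luteolin + TGF-β1 (triangles), grouped by class. COL7A1 runs from 218 to 818 to 2416 CPM, whereas COL5A3 and COL4A5 have their lowest point after TGF-β1.

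A gene was called higher or lower when its ratio was at least 2-fold and its counting interval excluded equality, among genes with 1 CPM or more in either library compared. After TGF-β1, 6 of the 27 eligible collagen chains were called higher than in control, where 3.7% of all 13416 eligible genes were. Another 4 chains were called lower, where 6.67% of all genes were. The median log2 ratio of the 27 chains was -0.06, and that of all genes was -0.01. With luteolin + TGF-β1 over TGF-β1, 12 of 27 chains were called higher and 1 lower, against 12.5% and 14.8% of 13703 eligible genes. The collagen median was 0.89 and the all-gene median -0.04, and 22 of the 27 chains had a ratio above 0, against 48.15% of all genes. Luteolin + TGF-β1 over control gave 13 chains higher and 2 lower, against 12.4% and 17.1% of 13859 genes, with a median of 0.83. These 3 comparisons share libraries, and the third is the sum of the other 2 on the log scale.

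The luteolin comparisons depended in part on scaling, because other scalings moved the median of all genes. Scaling to total counts moved the all-gene median for luteolin + TGF-β1 over TGF-β1 to -0.27 and upper-quartile scaling moved it to 0.15. By total counts the collagen calls were 10 higher and 3 lower, beside 8.77% and 19.7% of all genes. By upper quartile they were 14 higher and 1 lower of 26 eligible, beside 16.2% and 11.7% of all genes. Relative to the all-gene median, the collagen median was 0.93, 0.94 and 0.95 under the TMM, total-count and upper-quartile scalings. A scaling shifts the log2 ratios of all genes by the same amount, so this difference could move only through which genes were eligible. It is therefore no check of the result. Against control, total counts gave 10 higher and 7 lower, beside 7.8% and 25.5% of all genes. The added lower calls were COL9A2, COL8A2, COL4A5, COL4A6 and COL15A1, and the lost higher calls COL6A1, COL6A2 and COL27A1. Upper quartile gave 14 higher and 2 lower, beside 15.9% and 14.2%.

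**Figure D3:**
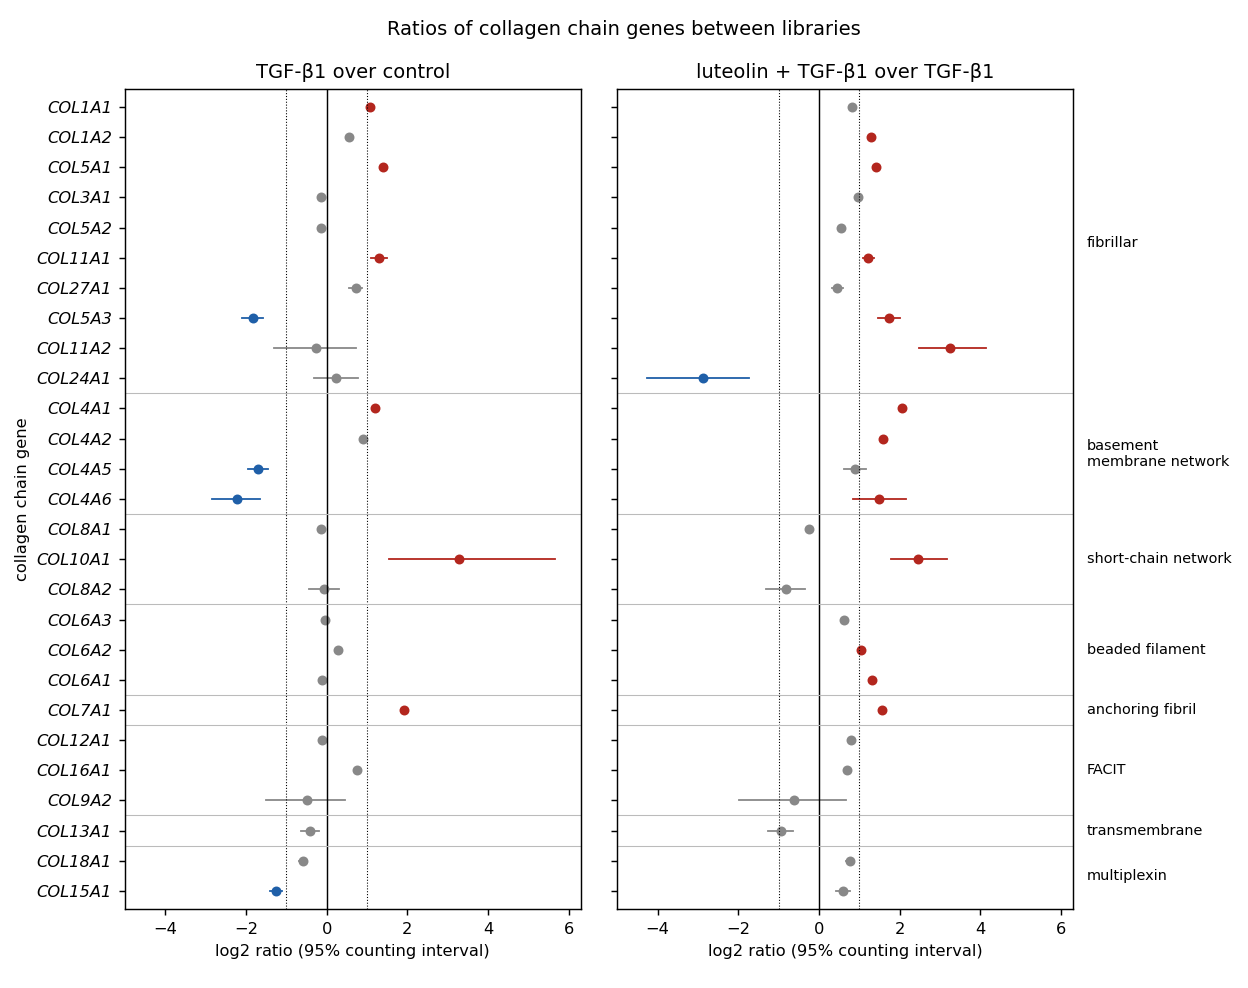
Log2 ratios of the 27 collagen chain genes between libraries, with exact 95% counting intervals, by class, for TGF-β1 over control (left) and luteolin + TGF-β1 over TGF-β1 (right). Red points were called higher, blue lower and grey neither, and the dotted lines mark 2-fold. After TGF-β1 6 chains are red and 4 blue, and with luteolin + TGF-β1 over TGF-β1 12 are red and 1 blue.

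Type I collagen, the main protein of scar and bone, is made of 2 COL1A1 chains and 1 COL1A2 chain. COL1A1 (ENSG00000108821) lies on chromosome 17 at 50184101 to 50201631 in GRCh38. It stood at 8208 CPM in control, 17225 CPM after TGF-β1 and 30153 CPM after luteolin + TGF-β1. Its log2 ratio was 1.07 (1.06 to 1.08) after TGF-β1, which was called, and 0.81 (0.80 to 0.81) with luteolin over TGF-β1, which was not. By total counts the first ratio was 0.95, under the 2-fold rule. COL1A2 (ENSG00000164692), on chromosome 7 at 94394895 to 94431227, stood at 3968.5, 5869.9 and 14416 CPM. Its ratios were 0.56 (0.55 to 0.58) and 1.30 (1.28 to 1.31), so the call fell on the other step. The TPM ratio of COL1A1 to COL1A2 was 2.35 in control, 3.33 after TGF-β1 and 2.38 with luteolin. This ratio does not depend on library scaling. It moved by 0.50 on the log2 scale after TGF-β1 (0.49 to 0.52) and back by -0.49 with luteolin (-0.50 to -0.47), which left it 0.02 from the control.

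COL3A1, the chain of type III collagen that forms fine fibrils with type I, was not called in any comparison. It stood at 964 CPM in control, 881 CPM after TGF-β1 and 1714 CPM with luteolin, for log2 ratios of -0.13 and 0.96. By upper-quartile scaling the second ratio was 1.13 and passed the rule. COL1A1 therefore exceeded COL3A1 by 5.91-fold in TPM in control, 13.6-fold after TGF-β1 and 12.2-fold with luteolin. COL5A2, its neighbour on chromosome 2, had a similar pattern at 802, 730.1 and 1065 CPM, with ratios of -0.14 and 0.54.

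Type V chains join type I fibrils and limit their width, and their 3 genes moved apart. COL5A1 (ENSG00000130635) stood at 360.3 CPM in control, 944 CPM after TGF-β1 and 2494 CPM with luteolin. It was called higher at both steps, by 1.39 (1.35 to 1.43) and 1.40 (1.37 to 1.43), and was 6.92-fold above control with luteolin. COL5A3 (ENSG00000080573) stood at 35.2 CPM in control, 9.91 CPM after TGF-β1 and 32.7 CPM with luteolin. It fell by 1.83 on the log2 scale (-2.09 to -1.57) after TGF-β1 and was higher by 1.72 (1.450 to 1.999) with luteolin, which left it within -0.11 (-0.28 to 0.07) of control. In TPM, COL5A1 was 0.294 of COL5A2 in control, 0.846 of it after TGF-β1 and 1.53 times it with luteolin. COL5A1 exceeded COL5A3 by 6.20-fold, 57.7-fold and 46.3-fold in the same order. The 250 bases before the start sites of COL5A1 and COL5A3 are shown because the chains went opposite ways after TGF-β1. They are from RefSeq on GRCh38.p14, at chr9:134641553-134641802 (+) and chr19:10010505-10010754 (-), with CCAAT and GGGCGG in capitals on either strand.
COL5A1: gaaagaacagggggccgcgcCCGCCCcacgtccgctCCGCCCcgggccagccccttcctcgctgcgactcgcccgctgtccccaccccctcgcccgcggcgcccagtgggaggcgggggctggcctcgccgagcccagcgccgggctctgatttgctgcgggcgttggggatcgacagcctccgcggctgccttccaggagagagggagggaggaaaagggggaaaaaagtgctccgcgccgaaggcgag
COL5A3: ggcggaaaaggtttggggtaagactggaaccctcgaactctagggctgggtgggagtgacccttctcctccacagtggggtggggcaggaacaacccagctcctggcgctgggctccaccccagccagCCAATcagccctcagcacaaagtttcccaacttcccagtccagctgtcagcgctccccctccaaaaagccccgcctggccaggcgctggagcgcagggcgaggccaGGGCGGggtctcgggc
COL5A1 holds GGGCGG 2 times and no CCAAT in this window, while COL5A3 holds each of them 1 time.

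Type XI chains are close relatives of type V and are best known from cartilage. COL11A1 (ENSG00000060718) stood at 16.8 CPM in control, 41.5 CPM after TGF-β1 and 96.4 CPM with luteolin. It was called higher at both steps, by 1.30 (1.11 to 1.501) and 1.22 (1.08 to 1.36), and by total counts the second was 0.999. Its TPM ratio to COL5A1 was 0.057, 0.054 and 0.048. The log2 shift of this ratio was -0.08 (-0.28 to 0.11) after TGF-β1 and -0.18 (-0.33 to -0.04) with luteolin over TGF-β1. Over control the shift with luteolin was -0.27 (-0.45 to -0.09). COL11A2 had 24, 15 and 131 counts, which is 1.21, 1.00 and 9.58 CPM. It was called higher with luteolin over TGF-β1, by 3.25 (2.48 to 4.13), and not after TGF-β1, where the ratio was -0.26 (-1.30 to 0.73).

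COL24A1 and COL27A1 are the other fibrillar chains. COL24A1 had 63, 56 and 7 counts, which is 3.17, 3.75 and 0.512 CPM. It was the only chain called lower with luteolin over TGF-β1, by -2.87 (-4.25 to -1.74), under TMM scaling. COL27A1 stood at 28.4, 46.8 and 64.3 CPM, with ratios of 0.72 and 0.46 that each missed the rule and a ratio of 1.18 (1.025 to 1.334) over control that passed it. By total counts that ratio was 0.84 and did not pass.

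The type IV genes lie in head-to-head pairs that share the interval between their start sites, and the 2 pairs measured here had ratios on opposite sides of 0 after TGF-β1. COL4A1 (ENSG00000187498) and COL4A2 (ENSG00000134871) encode the main chains of most basement membranes and lie on chromosome 13, at 110148963 to 110307157 and 110307284 to 110513209. COL4A5 and COL4A6 lie on chromosome X, and their proteins are known from the kidney, skin and smooth muscle basement membranes. The sequences are shown because the ratios of each pair had the same sign at both steps. The first is the whole interval of 126 bases between the COL4A1 and COL4A2 start sites, chr13:110307158-110307283 (+), and the second the 250 bases before COL4A5, chrX:108439588-108439837 (+), inside the 379 bases between COL4A5 and COL4A6. Both are from RefSeq on GRCh38.p14, with CCAAT and GGGCGG in capitals on either strand.
COL4A1-COL4A2: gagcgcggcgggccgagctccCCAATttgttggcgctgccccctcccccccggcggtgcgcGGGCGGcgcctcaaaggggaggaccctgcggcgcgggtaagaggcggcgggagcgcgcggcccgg
COL4A5: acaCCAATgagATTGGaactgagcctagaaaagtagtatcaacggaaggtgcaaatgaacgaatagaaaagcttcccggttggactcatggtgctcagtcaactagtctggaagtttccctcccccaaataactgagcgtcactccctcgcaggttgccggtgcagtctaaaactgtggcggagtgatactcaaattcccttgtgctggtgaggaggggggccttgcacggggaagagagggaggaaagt
The first holds CCAAT 1 time and GGGCGG 1 time, and the second holds CCAAT 2 times and no GGGCGG.

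COL4A1 stood at 714 CPM in control, 1629.6 CPM after TGF-β1 and 6776 CPM with luteolin. Its ratios were 1.19 (1.16 to 1.22) and 2.06 (2.04 to 2.08), and it was 9.49-fold higher with luteolin than in control. COL4A2 stood at 941, 1768 and 5312 CPM, with ratios of 0.91 (0.88 to 0.94) and 1.59 (1.57 to 1.61). The first of these missed the 2-fold rule. The TPM ratio of COL4A1 to COL4A2 was 0.997 in control, 1.21 after TGF-β1 and 1.68 with luteolin. COL4A5 stood at 36.6 CPM in control, 11.3 CPM after TGF-β1 and 20.8 CPM with luteolin. It was called lower after TGF-β1, by -1.70 (-1.95 to -1.46), and its ratio with luteolin was 0.89 (0.61 to 1.17). COL4A6 had 180, 29 and 74 counts, which is 9.04, 1.94 and 5.41 CPM. It was called lower after TGF-β1, by -2.22 (-2.84 to -1.65), and higher with luteolin over TGF-β1, by 1.48 (0.84 to 2.15). The COL4A5 to COL4A6 ratio was 3.16, 4.53 and 3.01 in TPM, and the counting intervals of its shifts all included 0. COL4A3 was at 0 in all libraries and COL4A4 had at most 4 counts.

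Type VII collagen anchors the basement membrane to the tissue below it. COL7A1 (ENSG00000114270), on chromosome 3 at 48564073 to 48595329, stood at 218 CPM in control, 818 CPM after TGF-β1 and 2416 CPM with luteolin. It was called higher at both steps, 3.76-fold and then 2.95-fold, and was 11.1-fold above control with luteolin. Its log2 ratio of 1.91 (1.86 to 1.96) after TGF-β1 was above those of 98.8% of the eligible genes. The 250 bases before its start site, chr3:48595330-48595579 (-) in RefSeq on GRCh38.p14, are shown because this was the highest ratio after TGF-β1 apart from that of COL10A1. The same motifs are in capitals.
COL7A1: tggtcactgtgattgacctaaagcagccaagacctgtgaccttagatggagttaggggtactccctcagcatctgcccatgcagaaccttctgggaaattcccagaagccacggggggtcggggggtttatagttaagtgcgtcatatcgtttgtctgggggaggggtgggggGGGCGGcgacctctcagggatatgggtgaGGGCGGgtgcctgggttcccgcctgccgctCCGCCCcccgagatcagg
GGGCGG occurs 3 times on either strand and CCAAT does not occur. COL7A1 was also the only one of the 32 members with a promoter in the table to hold CAGACA or its reverse complement TGTCTG, the core letters of a SMAD binding element, in this window, against 13.6% of all 27305 promoters.

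Over the same 32 promoters, 8 (25%) held CCAAT or ATTGG against 33.0% of all, and 17 (53.1%) held GGGCGG or CCGCCC against 42.2%. TATAAA or TTTATA was in 5 (15.6%) against 11.2%, and TGACTCA or TGAGTCA was in 0 against 4.15%. The motifs were searched in the 250 bases before the start site, on both strands, and no motif contains another. The promoters of COL1A1, COL1A2, COL2A1, COL3A1, COL5A2, COL6A1, COL6A5, COL8A1, COL9A3, COL14A1, COL20A1 and COL22A1 were not used here.

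Type VI chains stayed near the control level after TGF-β1 and were higher with luteolin. COL6A1 stood at 755, 704 and 1751 CPM, with ratios of -0.10 and 1.32 (1.28 to 1.35). COL6A2 stood at 1337, 1630.3 and 3362 CPM, with ratios of 0.29 and 1.04 (1.022 to 1.067). The second call rests on the scaling, since it was 0.83 by total counts and 0.998 by TMM factors computed without the collagens. COL6A3, the largest of these chains, stood at 4209, 4102 and 6277 CPM, with ratios of -0.04 and 0.61, and was not called. The COL6A3 to COL6A1 ratio in TPM was 1.52, 1.59 and 0.976.

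**Figure D4:**
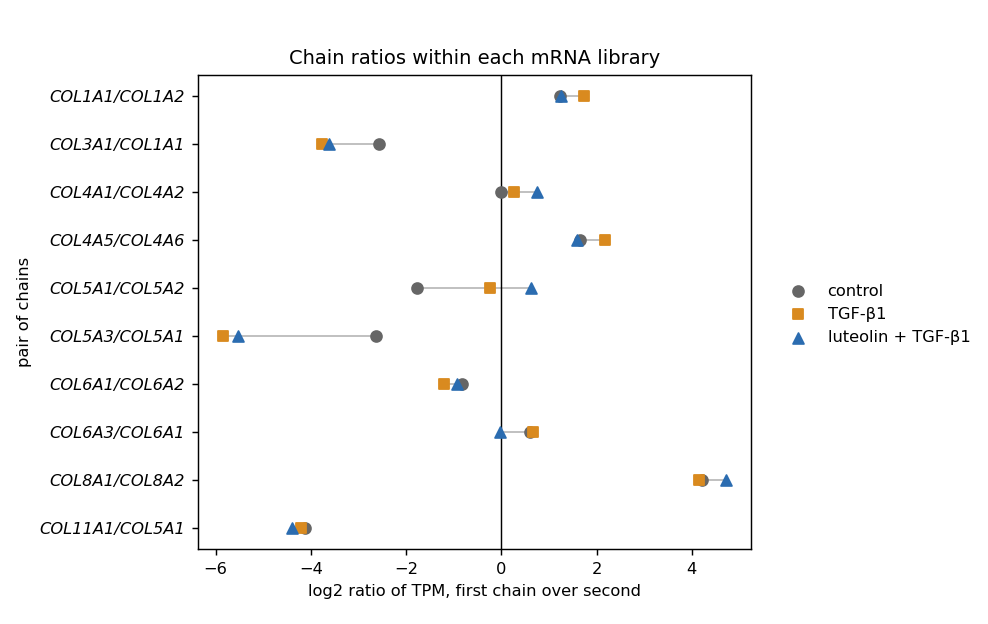
Log2 ratio of the TPM of 2 chains within each library (first chain over second), for 10 pairs of chains; circles are control, squares TGF-β1 and triangles luteolin + TGF-β1. COL5A1 over COL5A2 passes from below 0 in control to above 0 with luteolin, and COL1A1 over COL1A2 with luteolin lies beside the control.

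Type X collagen is the network chain of growth-plate cartilage. COL10A1 had 3 counts in control, 22 after TGF-β1 and 110 with luteolin, which is 0.151, 1.47 and 8.04 CPM. The ratio was 3.29 (1.55 to 5.67) after TGF-β1 and 2.45 (1.78 to 3.18) with luteolin, and both were called. COL10A1 lies within the span of NT5DC1, and the strand setting of the counting is not given, so reads of these genes cannot be told apart. The chondrocyte markers SOX9 and MATN3 had 648, 677 and 393 counts and 166, 155 and 74 counts, with COL2A1 and CHAD at 0. ACAN had 17, 5 and 22 counts and SNORC 3, 4 and 24, and both were called higher with luteolin over TGF-β1, at 2.26 (0.83 to 4.02) and 2.71 (1.17 to 4.70). The part of these markers in the COL10A1 result was not tested. The chondrocyte list, mostly SOX9, summed to 41.9, 56.5 and 37.5 CPM. COL8A1 and COL8A2, network chains of vessel walls and the cornea, were not called in any comparison and stood at 283, 257 and 217 CPM and at 7.54, 7.23 and 4.09 CPM. By total counts COL8A2 was called lower with luteolin over TGF-β1, at -1.04.

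Only 3 of the 10 fibril-associated chains were eligible, and none of these was called after TGF-β1 or with luteolin over TGF-β1. Over all eligible genes, 3.7% were called higher and 6.67% lower after TGF-β1, and 12.5% and 14.8% with luteolin over TGF-β1. COL12A1, which bridges fibrils, stood at 1298, 1207 and 2085 CPM, with ratios of -0.11 and 0.79. COL16A1 stood at 127, 214 and 343 CPM, with ratios of 0.76 and 0.68 and a called ratio of 1.44 (1.37 to 1.51) over control. COL9A2 had 28, 15 and 9 counts and no call under TMM scaling. Over control it was called lower by total counts (-1.44) and by TMM factors computed without the collagens (-1.16). COL13A1, a chain that spans the cell membrane, stood at 25.0, 18.8 and 9.72 CPM and was called lower over control, by -1.36, and by total counts also over TGF-β1, at -1.17. The multiplexins carry endostatin-like ends. COL15A1 stood at 72.6, 30.5 and 45.8 CPM and was called lower after TGF-β1, by -1.25 (-1.41 to -1.10). COL18A1 stood at 128, 85.6 and 146 CPM and was not called. Its gene overlaps antisense transcripts.

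Genes that make, trim, bind and break down collagen were read from lists chosen with the collagens. Earlier results of these data were known when the lists were chosen, so the shares of all genes beside them are no test of the lists. Beside their counts, 3.7% of all eligible genes were called higher and 6.67% lower after TGF-β1, and 12.5% and 14.8% with luteolin over TGF-β1. Of the 15 genes on the hydroxylation list, 1 was called higher after TGF-β1 (P4HA3, a proline hydroxylase subunit, by 2.44) and 1 lower (P3H2, by -1.23). With luteolin over TGF-β1, 3 were called higher (P4HA1 by 1.08, PLOD2 by 1.21 and P4HA2 by 1.34) and 1 lower (COLGALT2 by -1.69). COLGALT1 and COLGALT2 are on this list but encode galactosyltransferases and not hydroxylases. Of the 12 folding and export genes, none was called after TGF-β1, and 1 with luteolin (FKBP10, by 1.005). Among the 10 eligible of 13 cleavage and cross-linking genes, ADAMTS14 was called lower after TGF-β1 (by -2.04). With luteolin 4 were called higher, among them LOX at 1.09 and LOXL2 at 1.72, and 2 lower (ADAMTS3 at -2.87 and LOXL1 at -1.05). Of 9 eligible of 11 receptors, 2 were called higher after TGF-β1 (MRC2 at 1.017 and ITGA10 at 1.32) and 4 with luteolin over TGF-β1. Among those 4 were the collagen-binding integrin subunits ITGA11 and ITGA1, at 2.18 and 2.62. ITGA2 and ITGA10, also collagen-binding integrin subunits, were at -0.24 and -0.67 in that comparison and were not called. Of 8 eligible of 11 proteases and protease inhibitors, 4 were called higher after TGF-β1 (FAP, TIMP3, MMP14 and MMP2, the last by 1.94). FAP, MMP14 and MMP2 are proteases, and TIMP3 is an inhibitor of MMP proteases. With luteolin over TGF-β1, the inhibitors TIMP2 and TIMP1 were called higher, at 1.06 and 1.11, and TIMP3 lower, at -1.21.

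Many of these luteolin calls rest on the scaling. By total counts the calls of P4HA1, PLOD2, FKBP10, LOX, ADAMTS2, ADAMTS14, MRC2, DDR2, TIMP1, TIMP2 and THBS2 were lost, with ratios of 0.79 to 0.99. HSPA5, LOXL4 and ENG were then called lower. By TMM factors computed without the collagens, FKBP10, MRC2, DDR2 and THBS2 lost their calls. LOXL1 lost its lower call by upper quartile, where P3H4, BMP1, ITGB1, DDR1 and CTSK were called higher. After TGF-β1, MRC2 and FAP lost theirs by total counts, and LOX was called higher at 1.018 by RLE. P3H4 and BMP1 also passed with luteolin by RLE.

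Of the 10 fibril regulators, 5 were called higher after TGF-β1 and 2 lower, beside 3.7% and 6.67% of all eligible genes. FN1, which collagen fibrils assemble on, stood at 3633 CPM in control, 30194 CPM after TGF-β1 and 26621 CPM with luteolin. DCN, a proteoglycan that binds fibrils, stood at 1169.9, 168 and 759.6 CPM, and LUM at 222, 31.5 and 119 CPM, so that both were lowest after TGF-β1. With luteolin over TGF-β1 5 were called higher, SPARC among them at 1.502, and none lower, beside 12.5% and 14.8%. The medians of the 6 lists after TGF-β1 ran from 0.16 to 1.27, and with luteolin over TGF-β1 from 0.04 to 0.88, beside all-gene medians of -0.01 and -0.04.

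The miR-29 family is known to bind collagen mRNAs. Its 3 mature forms share the seed, bases 2 to 8, in capitals here.
miR-29a-3p: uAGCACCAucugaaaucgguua
miR-29b-3p: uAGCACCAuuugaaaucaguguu
miR-29c-3p: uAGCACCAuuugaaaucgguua
In the small RNA libraries, miR-29a-3p made up 15.6% of counts in control, 9.42% after TGF-β1 and 10.5% with luteolin. Its log2 ratio was -0.83 after TGF-β1 and 0.36 with luteolin over TGF-β1. miR-29b-3p made up 2.63%, 2.17% and 0.837%, with ratios of -0.39 and -1.16. miR-29c-3p had 42073, 4219 and 10520 counts, with ratios of -1.86 and 0.63. All 3 were below control in both treated libraries, and no scaling tried turned a sign. By upper quartile, however, miR-29b-3p differed by only -0.04 after TGF-β1 and miR-29a-3p by -0.16 with luteolin over control.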

How the data were processed

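MRC5 cells at 48 h gave 1 mRNA and 1 small RNA library per group. Counts per gene and per miRNA, and TPM, are the authors' values as deposited, per the file headers. The authors also deposited log2 ratios, each of 1 library over another by their column names. The submitters' processing notes list edgeR 3.36.0, featureCounts 2.0.1, HISAT2 2.1.0 and fastp 0.20.0 (build hg38). Neither strand setting nor annotation release is given in these sources. The 3 columns of the miRNA table headed CPM were not used.

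Counts were scaled by library total and TMM factor from edgeR 4.0.16 (1.11, 1.02 and 0.879 for mRNA). The authors' deposited TPM served for comparisons between chains. A gene was eligible at 1 CPM in either library compared. Intervals are exact 95% Clopper-Pearson for a ratio given the summed counts (SciPy 1.17.1), and Wilson for shares. With no replicates there is no test, and a call needs 2-fold and an interval that excludes equality. The interval code was tested on simulated counts that held counting error only, so that test says nothing of the spread between cultures. Members were named if called or among the 10 highest by TPM. Members and lists were chosen with earlier results of these data known, although the rule that defines the members uses the symbol alone. Promoter and miRNA sequences are from RefSeq GRCh38.p14. Alternatives were total-count, RLE (DESeq2 1.42.0) and upper-quartile scaling, TMM without the collagens, no filter, a 10 CPM filter and a 1.5-fold rule.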

Additional observations from a re-analysis of the deposited data

How the results depend on the processing

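No direction of a collagen count or median reversed under any alternative run. By total counts the collagen median was -0.18 after TGF-β1, 0.67 with luteolin + TGF-β1 over TGF-β1 and 0.49 over control. The chains called lower in the luteolin comparisons then numbered 3 and 7, beside 19.7% and 25.5% of all genes. By upper quartile the medians were 1.097 and 1.006. Without a filter the median of luteolin + TGF-β1 over TGF-β1 was 0.81. At 10 CPM or more, 0 of 21 chains were called lower over TGF-β1 and 1 of 21 over control, beside 12.6% and 13.8% of all genes. The collagen median over control was then 1.18. At 1.5-fold, 20 of 27 chains were called higher and 3 lower over TGF-β1, beside 21.3% and 24.3% of all genes. Over control 15 of 27 were then called higher and 6 lower, beside 20.3% and 26.3% of all genes. The share of collagens in the summed TPM was 0.981%, 1.47% and 2.57% in the same library order as above, an alternative chosen after seeing the data. The authors' deposited log2 ratios, also added after seeing the data, differed from the ratios here by at most 0.06 for chains with a value. The cause of these shifts was not tested. No paired analysis was possible because each group has 1 library, and no library could be left out for the same reason. Depth limits COL10A1, COL11A2, COL24A1, COL4A6, COL8A2 and COL9A2, each with under 200 counts in every library.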

Other observations

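Collagen-handling genes were also read over control in the luteolin + TGF-β1 library, where 12.4% of all eligible genes were called higher and 17.1% lower. Of the 15 genes on the hydroxylation list 7 were called higher, with P4HA3 at 3.23 and P4HA2 at 1.95 on the log2 scale. The 2 called lower were P3H2 and the galactosyltransferase gene COLGALT2. Of the 9 eligible receptors 4 were called higher, with ITGA11 at 3.12 and ITGA1 at 2.504 (2.45 to 2.56). Of the 10 fibril regulators 7 were called higher and 0 lower, while DCN was at -0.62 and LUM at -0.91. SERPINH1, the collagen chaperone, was called higher at 1.17 (1.14 to 1.19), as was 1 other of the 12 folding and export genes, FKBP10. Of the 10 eligible cleavage and cross-linking genes 4 were called higher, with LOX at 2.08 and LOXL2 at 1.98, and 2 lower, and the list's median was -0.28. Of the 8 eligible proteases and protease inhibitors 5 were called higher and 0 lower, namely the proteases FAP, MMP14 and MMP2 (2.65) and the inhibitors TIMP1 and TIMP2. The all-gene median was -0.08. By total counts the higher calls were 5 of 15 genes on the hydroxylation list, 0 of 12 folding genes and 3 of 10 cleavage and cross-linking genes. They were 4 of 9 receptors, 2 of 8 proteases and inhibitors and 6 of 10 fibril regulators. The lower calls were then 2, 1, 5, 1, 0 and 1, in the same order of lists. By total counts 7.8% of all eligible genes were called higher and 25.5% lower. This scaling of the lists was added after seeing the data. These ratios share their libraries with those given for each step.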
